A study of Mus musculus with 16 samples.

Results

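The oligoadenylate synthetase (Oas) family was followed in kidney RNA, mouse by mouse, through its members Oas1a, Oas1b, Oas1g, Oas2, Oas3, Oasl1, and Oasl2. These 7 genes were chosen on these arrays for the size of their rise in Fcgr2b-/- against wild-type kidneys, so their values on those 2 groups of arrays describe the choice and carry no test. Of the 7, 6 had a probe named through the RefSeq table and 5 had a probe that passed the filter on dim signal, out of 22907 genes with a named probe. No probe was matched to Oas1b, which was not analysed here. Oas3 was the member that did not pass the filter. A member with more than 1 probe is given by the brightest.

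The Oas enzymes bind double-stranded RNA in the cytosol and then join ATP into short 2'-5' linked oligoadenylates. These oligoadenylates act as a second messenger in the antiviral response. The genes are induced by type I interferon through factors that bind response elements in their promoters, and cGAS, the DNA sensor that signals through STING, has a related protein fold. Oas1a is an active synthetase, while the mouse carries several further Oas1 genes of which some lack the activity. Oas2 and Oas3 are larger proteins built of repeated synthetase units. The Oas-like proteins carry ubiquitin-like domains, Oasl2 is an active synthetase, and Oasl1 has no synthetase activity and is known to hold back the translation of Irf7.

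The whole kidney of 16 mice was hybridised to one-color arrays, 1 mouse per array and 4 mice per genotype, all given as 6 months old. Wild-type and Sting gt/gt mice were labelled as C57BL/6, the second being homozygous for the Goldenticket (gt) allele, which leaves STING without function in every cell. Fcgr2b-/- mice, a lupus model that lacks the inhibitory Fc gamma receptor IIb in every cell, and the double-deficient mice, which combine the deletion with 2 gt alleles, were labelled as 129/C57BL/6. For Fcgr2b-/- mice the labels give no Sting genotype, while the study's own account heads their group as heterozygous for the gt allele. Strain and Fcgr2b genotype cannot be told apart where Fcgr2b-/- or double-deficient mice are compared with wild-type or Sting gt/gt mice, and in whole kidney fewer cells of a type and less RNA per cell cannot be told apart. The labels name no litters, but animal labels open with a number of unstated meaning that wild-type mice 3 and 4, Fcgr2b-/- 4 and double-deficient 3, and Fcgr2b-/- 3 and double-deficient 4 share. Over the probes that passed the filter on dim signal, the consensus correlation of mice with the same number was 0.825 (limma's duplicateCorrelation). The p-values measure the spread between these mice, which may be technical in part.

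Signal is log2 intensity less that of the 75th percentile on the same array, so 0 is the brightness of that percentile and a difference of 1 is 2-fold. A level can be compared between mice for the same gene but not between genes. Per array, 28443 to 35566 of 56605 probes were well above background, a flag set by the extraction software, and 0 were saturated. The Fcgr2b probe, whose place relative to the deleted part is not known here, lay between 0.61 and 1.65 in wild-type, between -0.51 and 0.23 in Fcgr2b-/-, and between -0.92 and 0.02 in double-deficient mice. It lay between -0.65 and 1.01 in Sting gt/gt mice, where mice 3 and 4 (0.19 and -0.65) fell within the range of the Fcgr2b-deficient arrays against their labels, and the member differences and correlations that use this group are given with and without these mice. The gt allele is a point mutation, so the level of the Sting1 transcript does not check that label.

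Because these genes are known to answer interferon, the stretch just before the annotated start of each gene is shown for the members that had a promoter entry and for 2 other Oas1 genes, Oas1f and Oas1c, that behaved differently from each other on the arrays. The sequences are from RefSeq (GRCm38.p6), 130 bases that end at the start of the gene, read 5' to 3' on the strand of the gene. Capitals mark matches to the core of the interferon-stimulated response element (ISRE), GAAANNGAAA, on either strand.
Oas1a (chr5:120907526-120907655, minus strand): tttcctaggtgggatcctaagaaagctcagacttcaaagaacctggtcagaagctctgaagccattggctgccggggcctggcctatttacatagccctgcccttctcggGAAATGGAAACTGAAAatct
Oas1g (chr5:120887614-120887743, minus strand): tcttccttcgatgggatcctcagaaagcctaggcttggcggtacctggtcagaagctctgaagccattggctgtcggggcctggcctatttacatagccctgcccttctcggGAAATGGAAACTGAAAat
Oas3 (chr5:120777660-120777789, minus strand): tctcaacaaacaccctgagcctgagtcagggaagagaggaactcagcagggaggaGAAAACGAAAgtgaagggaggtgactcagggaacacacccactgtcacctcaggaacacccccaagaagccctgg
Oasl1 (chr5:114923110-114923239, plus strand): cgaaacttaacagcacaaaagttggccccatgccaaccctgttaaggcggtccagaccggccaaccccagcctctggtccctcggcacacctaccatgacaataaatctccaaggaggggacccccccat
Oasl2 (chr5:114896804-114896933, plus strand): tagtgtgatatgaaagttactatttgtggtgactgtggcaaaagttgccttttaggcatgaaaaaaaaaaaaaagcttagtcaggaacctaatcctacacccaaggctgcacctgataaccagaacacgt
Oas1f (chr5:120847237-120847366, plus strand): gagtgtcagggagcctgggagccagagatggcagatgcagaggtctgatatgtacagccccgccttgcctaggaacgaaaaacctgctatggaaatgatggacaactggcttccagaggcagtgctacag
Oas1c (chr5:120812515-120812644, minus strand): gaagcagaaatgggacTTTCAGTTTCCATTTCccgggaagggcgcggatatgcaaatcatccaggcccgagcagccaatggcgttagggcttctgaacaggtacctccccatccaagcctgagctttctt

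In these 130 bases Oas1a and Oas1g each held 2 ISRE cores that overlap each other, with first bases at -20 and -14 from the start of Oas1a and at -18 and -12 from that of Oas1g. The windows of these 2 paralogs were 87.9% identical over 116 of 132 aligned positions. Oas3 held 1 core, at -75. Oas1c held 2 overlapping cores on the opposite strand, at -114 and -108. The letters GAAANNGAAA were not in this window of Oasl1, Oasl2, or Oas1f, which says nothing about which factors act on these genes. Over windows of 250 bases before to 50 bases after the start, 3 of the 5 members with an entry held the core, as did 1131 of 32851 promoters in the table (3.44%). A match of letters is a description and not a bound site. Entries for Oas2, Oas1b, Oas1d, and Oas1e were missing.

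**Figure D1:**
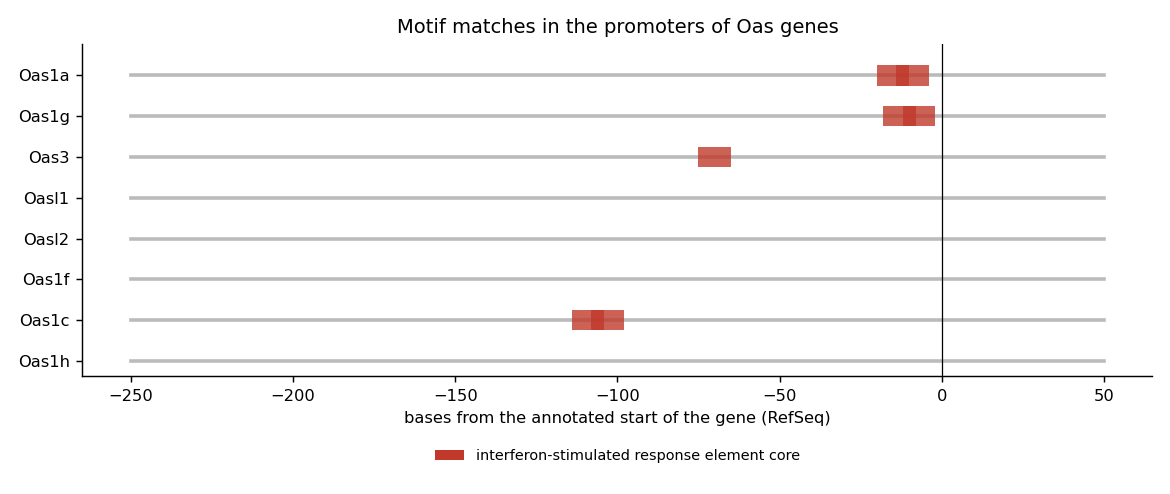
Positions of matches to the ISRE core (red) relative to the annotated start of each Oas gene (x axis, bases), 1 row per gene with a promoter entry. The ISRE matches of Oas1a and Oas1g begin at -20 to -12, that of Oas3 at -75, and those of Oas1c at -114 and -108.

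Oas1a, an active synthetase of the Oas1 group, was well above background on 16 of 16 arrays. Its signal was 0.92, -0.39, 0.10, and 0.88 in wild-type mice 1 to 4 and 3.77, 1.10, 0.72, and 3.42 in Fcgr2b-/- mice 1 to 4. It was 0.57, 0.37, 1.01, and 0.05 in double-deficient and 1.87, 0.48, 1.45, and 0.62 in Sting gt/gt mice. Mice 1 and 4 of the Fcgr2b-/- group stood above every other mouse, and mice 2 and 3 of that group lay among or just above the wild-type mice, so the groups overlapped. Against the wild-type mean, Fcgr2b-/- mice 1 and 4 were 10.5-fold and 8.25-fold higher, and mice 2 and 3 were 1.65-fold and 1.27-fold higher. Group means ± SD (n = 4) were 0.38 ± 0.63 in wild-type, 2.25 ± 1.56 in Fcgr2b-/-, 0.50 ± 0.40 in double-deficient, and 1.10 ± 0.67 in Sting gt/gt mice.

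Oas1g, a close paralog of Oas1a, gave a dim signal that was well above background on 9 of 16 arrays. These were 3 of 4 in Fcgr2b-/- mice and 2 of 4 in each of the other genotypes. Its differences between genotypes, given below, thus rest in part on signal not above background. It was -4.46, -4.75, -5.22, and -4.56 in wild-type and -2.74, -4.20, -4.71, and -1.77 in Fcgr2b-/- mice 1 to 4. It was -4.73, -4.97, -4.37, and -5.22 in double-deficient and -4.15, -4.74, -4.64, and -6.83 in Sting gt/gt mice. The order of its brightest mice was again Fcgr2b-/- 4 and 1, then Sting gt/gt 1. Sequences of the probes were not used here, so binding of one Oas1 transcript to the probe of another was not tested.

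Oas2, the member built of 2 synthetase units, had the widest span over the mice, 6.60 on the log2 scale. Its signal was -1.07, -4.52, -3.07, and -2.05 in wild-type and 2.08, -2.19, -1.72, and 0.23 in Fcgr2b-/- mice 1 to 4. It was -2.60, -2.51, -1.44, and -2.67 in double-deficient and -0.46, -2.10, -1.74, and -1.05 in Sting gt/gt mice. Fcgr2b-/- mouse 1 was 27.1-fold and mouse 4 was 7.5-fold above the wild-type mean, and mice 2 and 3 were 1.41-fold and 1.94-fold above it. Wild-type mouse 2 was the lowest of all 16 and wild-type mouse 1 lay above both Fcgr2b-/- mice 2 and 3. A second Oas2 probe was above background on 0 arrays.

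Oas3, which favours long double-stranded RNA, was well above background on 2 arrays only, those of Fcgr2b-/- mice 1 and 4, at -4.34 and -4.55. Its measured signal was -6.51 and -6.96 in the other 2 mice of that group and between -7.80 and -6.01 in the remaining 12 mice. Since the lowest signal counted as above background exceeded the group mean, no fold is given for it and it was not tested.

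Oasl1, the catalytically inactive Oas-like protein, had the narrowest span of the members bright on all 16 arrays, 2.85. Its signal was -0.20, -1.0, -0.18, and -0.08 in wild-type and 1.49, 0.58, -0.28, and 1.85 in Fcgr2b-/- mice 1 to 4. It was -0.43, -0.88, 0.28, and -0.75 in double-deficient and 0.22, -0.25, 0.13, and -0.36 in Sting gt/gt mice. Here Fcgr2b-/- mouse 2 was the third highest of the 16, 1.92-fold above the wild-type mean, while mouse 3 was within the wild-type range. A second Oasl1 probe, also above background on all arrays, gave a difference of 1.25 between Fcgr2b-/- and wild-type means where the brightest probe gave 1.28. In double-deficient against Sting gt/gt mice the second probe gave -0.11 where the brightest gave -0.38, and in Sting gt/gt against wild-type mice it gave 0.06 where the brightest gave 0.30.

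Oasl2, the active Oas-like synthetase, was at -0.33, -2.14, -1.49, and -0.54 in wild-type and 1.89, -0.88, -0.79, and 1.72 in Fcgr2b-/- mice 1 to 4. It was -0.67, -1.27, -0.12, and -1.35 in double-deficient and 0.44, -0.73, -0.03, and -0.76 in Sting gt/gt mice. Fcgr2b-/- mice 1 and 4 were 8.10-fold and 7.18-fold above the wild-type mean. Mice 2 and 3 of that group lay below wild-type mice 1 and 4.

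**Figure D2:**
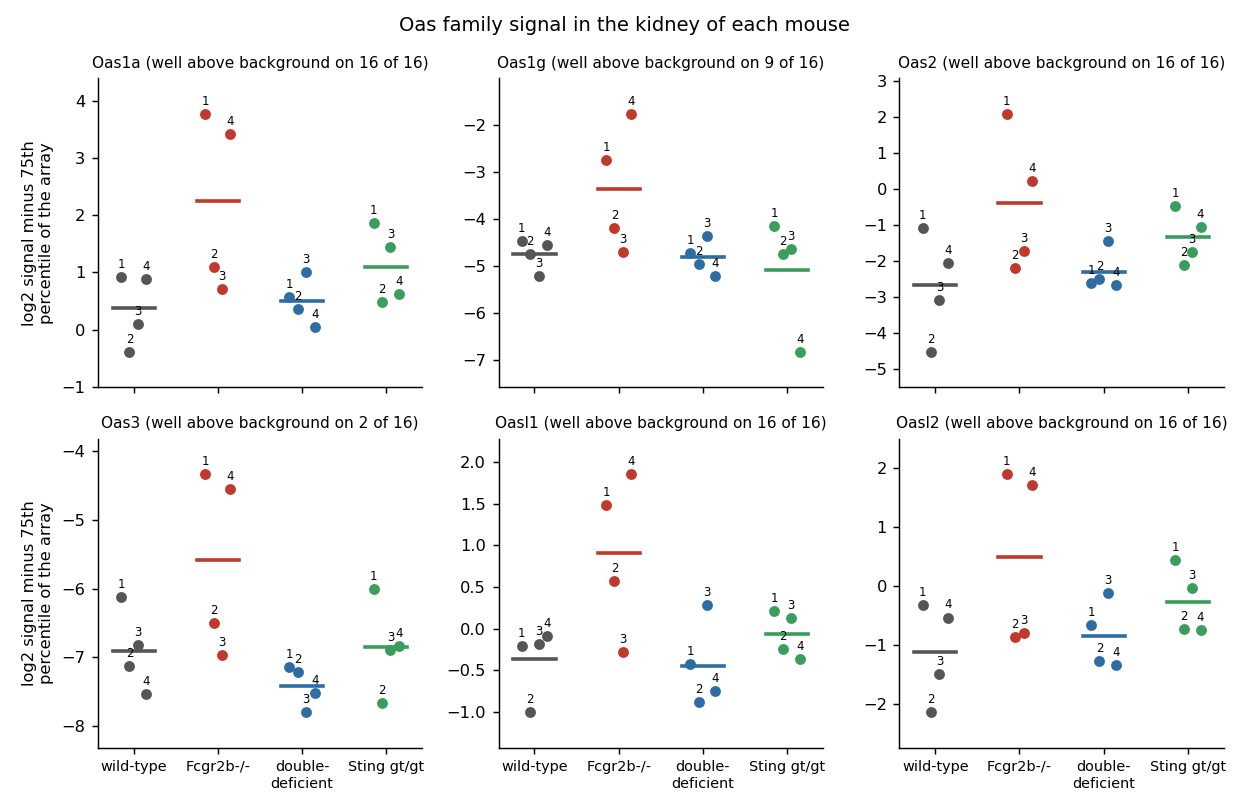
Signal of the 6 measured members (y axes, log2 less the array's 75th percentile) in each of 16 mice, grouped by genotype, with the mean of each group of 4. In every panel the 2 highest points belong to the Fcgr2b-/- group, and the other 2 Fcgr2b-/- mice lie close to the other genotypes.

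Over the members, Fcgr2b-/- mice 1 and 4 were the 2 highest of the 16 mice for 6 of 6. Of all tested probes 4.77% had these 2 mice on top. The choice for a rise in this group favours such a count, which is a description only. Oas3, 1 of the 6, did not pass the filter and was above background on these 2 arrays only. The mouse in the third place was Sting gt/gt mouse 1 for Oas1a, Oas1g, Oas2, and Oasl2. None of the 5 members that passed the filter separated the Fcgr2b-/- from the wild-type mice without overlap, against 1.2% of probes. The means of the Fcgr2b-/- group were at least 2-fold above wild-type for these 5, against 4.43% of probes, a count that the choice of members fixes. The differences of means on the log2 scale were 2.28 for Oas2 (4.85-fold), 1.87 for Oas1a (3.67-fold), 1.61 for Oasl2 (3.05-fold), 1.39 for Oas1g (2.62-fold), and 1.28 for Oasl1 (2.42-fold). The median over the 5 was 1.61, and 1.50 with Oas3, whose measured difference of 1.31 rests on a signal below background in wild-type mice, beside -0.04 over all probes. The median with Oas3 was 1.16 without Fcgr2b-/- mouse 1 and 1.08 without mouse 4, and Oas2 fell from 2.28 to 1.45 and Oas1g from 1.39 to 0.86 without mouse 1 and mouse 4, respectively.

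The same arrays of Fcgr2b-/- mice enter the comparison with double-deficient mice, where the values again describe the choice. The 5 members that passed the filter were at least 2-fold lower in double-deficient mice (2.71% of probes), by differences of -1.91 for Oas2, -1.75 for Oas1a, -1.46 for Oas1g, -1.35 for Oasl1, and -1.34 for Oasl2. Without Fcgr2b-/- mouse 1 Oas2 was at -1.08 and Oasl2 at -0.87, and without mouse 4 Oas1g was at -0.94 and Oasl2 at -0.93. Double-deficient and wild-type means lay close together, with differences from -0.08 for Oasl1 to 0.37 for Oas2 among the 5 members that passed the filter. Sting gt/gt means were higher than wild-type means for Oas2 by 1.34, for Oasl2 by 0.85, for Oas1a by 0.73, and for Oasl1 by 0.30, and that of Oas1g was lower, with a difference of -0.34. Without Sting gt/gt mouse 4 the Oas1g difference turned to 0.24, and without both mice 3 and 4 the differences were 1.40 for Oas2, 0.98 for Oasl2, 0.79 for Oas1a, 0.35 for Oasl1, and 0.30 for Oas1g. Of the 5, Oas2 alone reached 2-fold there, against 6.19% of probes, and it was at 0.73 without wild-type mouse 2. In order of group means, Fcgr2b-/- was first for each of the 5 and Sting gt/gt was next for Oas1a, Oas2, Oasl1, and Oasl2, and for Oas1g too once Sting gt/gt mouse 4 was left out, while neighbouring groups overlapped in each case. At an adjusted p (limma) under 0.05 and at least 2-fold, probes of 0 of the 5 members were called in Fcgr2b-/- against wild-type, where 0.0449% of all probes were called, and the share of probes called was 0% in double-deficient against Fcgr2b-/-, 0% in Sting gt/gt against wild-type, and 0% in double-deficient against wild-type.

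The comparison of double-deficient with Sting gt/gt mice asks whether the Oas genes still differ with Fcgr2b genotype when STING is without function. Its differences of means use neither group of the rise by which the members were chosen, though earlier results of these arrays were known. Its standard errors, intervals, and p-values come from a fit over the arrays of all genotypes. They thus also use the spread of the Fcgr2b-/- and wild-type mice, and are not independent of that choice. The SD in Fcgr2b-/- mice was the largest of any genotype for each of the 5 members that passed the filter. For Oas1a it was 1.56, against 0.63 in wild-type, 0.40 in double-deficient, and 0.67 in Sting gt/gt mice. By limma, none of the 5 members passed an adjusted p of 0.05. Oas2 was lower in double-deficient mice by a difference of -0.97 (SE 0.84, 95% interval -2.76 to 0.82, adjusted p = 0.891). Oas1a differed by -0.60 (SE 0.61, interval -1.89 to 0.69, adjusted p = 0.891). Oasl2 differed by -0.58 (interval -1.92 to 0.75, adjusted p = 0.892), Oasl1 by -0.38 (interval -1.25 to 0.50, adjusted p = 0.893), and Oas1g by 0.27 (interval -1.03 to 1.56, adjusted p = 0.939). These intervals include falls of more than 2-fold for every member tested and, for Oas1g, a rise of more than 2-fold, so the tests do not tell a fall of that size from no difference.

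The share of all probes called in that comparison was 0%, with 1085 probes (3.05%) under an unadjusted p of 0.05, among them 0 of the 5 members. The double-deficient mean was the lower for 4 of the 5 members that passed the filter and for 50.3% of probes. The groups overlapped for each of the 5, against 2.07% of probes without overlap. Without Sting gt/gt mouse 4, whose Fcgr2b signal was low, Oas1g turned to -0.31, Oas2 was at -0.87, Oas1a at -0.76, Oasl2 at -0.75, and Oasl1 at -0.48. Without Sting gt/gt mouse 3 the same differences were 0.42, -1.10, -0.49, -0.50, and -0.31. Without both they were -0.38, -1.02, -0.67, -0.71, and -0.43. Without Sting gt/gt mouse 1, the highest of the group, Oas1a was at -0.35 and Oasl2 at -0.35.

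**Figure D3:**
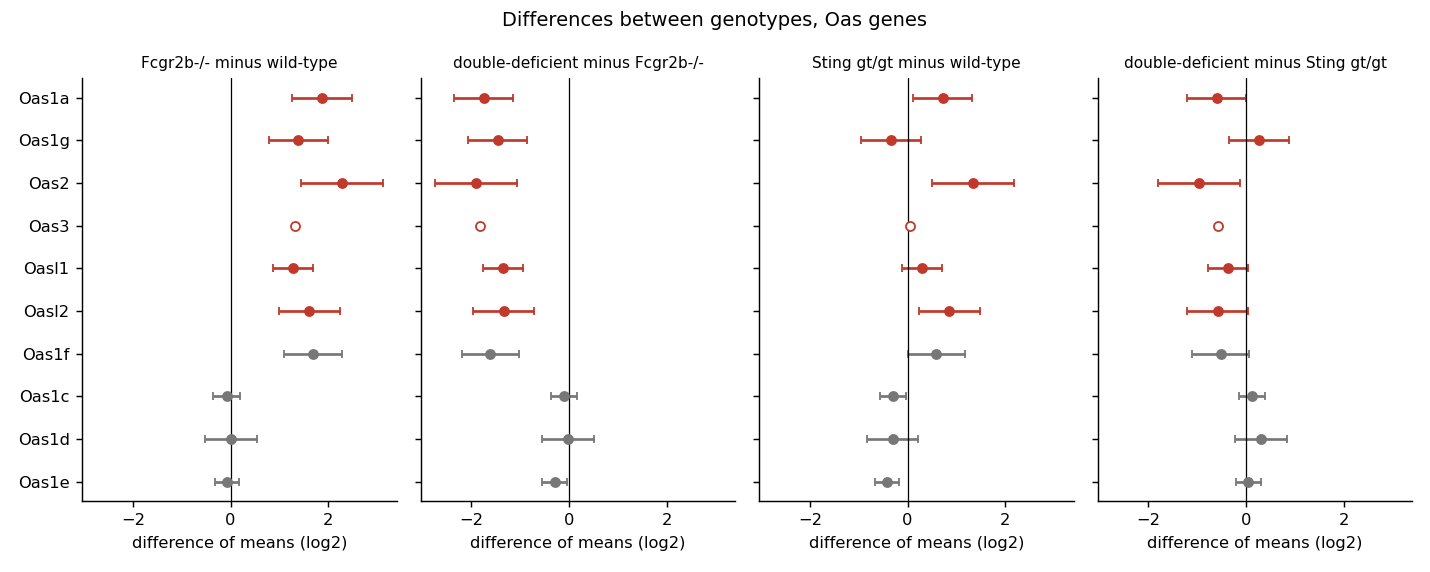
Difference of group means (x axis, log2) for each Oas gene (members red, other Oas1 genes grey), 1 panel per comparison, with bars of 1 limma standard error to each side and open marks for Oas3, which was not fitted. In double-deficient minus Sting gt/gt, the comparison tested for the members, the 5 tested members lie between -0.97 and 0.27, and in Fcgr2b-/- minus wild-type they lie between 1.28 and 2.28.

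Among the 8 STING-deficient mice, which are not in the rise used for the choice of members, the signals of different Oas genes went together. Earlier results of these arrays were known at that choice. For the 4 members bright on all arrays, the 6 pairs gave Pearson's r from 0.725 (Oas2 with Oasl1) to 0.964 (Oas1a with Oasl2), with exact two-sided permutation p adjusted over the 6 pairs from 0.000595 to 0.0466 (n = 8). Spearman's rho ran from 0.643 to 0.929, and 4 of 6 pairs were under 0.05 (exact permutation, adjusted p from 0.0134 to 0.0962). After removal of the genotype means r was between 0.631 and 0.952, and without the 2 mice farthest from the median it was between 0.683 and 0.969. All points share an array, its hybridisation and its scaling, and with quantile normalization r was between 0.756 and 0.951. Without Sting gt/gt mice 3 and 4 it was between 0.822 and 0.963 over the 6 mice left, as a description. Double-deficient mouse 3 and Sting gt/gt mice 1 and 3 were the high ends for Oas1a and Oasl2. Some genes outside the family also followed the mean of the 5 members in these 8 mice. Among those most like it over the 16 mice were Ppp1r18, H2-Ab1, and Ifitm3, each at r = 0.88 in the 8. The p-values of the pairs are given without a share over other pairs of genes.

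The other Oas1 genes of the mouse parted into Oas1f and the rest. Oas1f, an Oas1 paralog outside the member list, was at -0.11, -1.35, -0.90, and -0.31 in wild-type and at 2.51, -0.14, -0.43, and 2.15 in Fcgr2b-/- mice 1 to 4. It was at -0.54, -0.59, -0.13, and -1.09 in double-deficient and at 0.70, -0.67, 0.22, and -0.54 in Sting gt/gt mice. Its difference in Fcgr2b-/- against wild-type, 1.69, lay within the range of the members but did not pass the test (limma, unadjusted p = 0.011, adjusted p = 1.0), and in double-deficient against Fcgr2b-/- it was -1.61. Oas1c (-0.08), Oas1d (0.01), and Oas1e (-0.08) had nearly equal means in Fcgr2b-/- and wild-type mice, and Oas1h was above background on 1 array. Of the 5 paralogs, 4 were tested and 0 were called in any of the 5 comparisons.

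**Figure D4:**
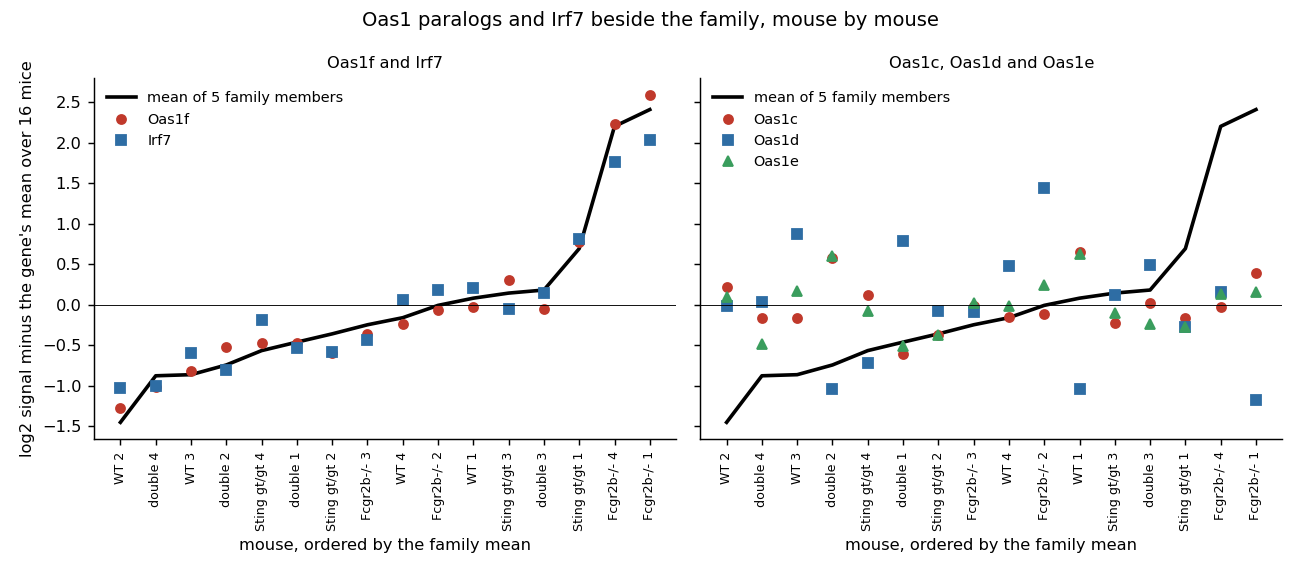
Signal of Oas1 paralogs and Irf7 relative to the mean of each gene over 16 mice (y axis, log2), with mice ordered along the x axis by the family mean. Oas1f and Irf7 follow the family and Oas1c, Oas1d, and Oas1e do not.

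Along chromosome 5, in RefSeq order, the named probes gave Dtx1, Oas2, Oas3, Oas1e, Oas1c, Oas1f, Oas1h, Oas1g, Oas1a, Oas1d, and Rph3a, and in a separate region Oasl2 and Oasl1 lie next to each other. The genes with differences above 1 in Fcgr2b-/- against wild-type were thus not contiguous, since Oas1e and Oas1c lie between Oas3 and Oas1f. Of the 20 nearest named genes outside the family, 5 on each side of both regions, 19 were tested and 0 were called. Their differences ran from -0.44 (1500011B03Rik) to 0.57 (Rph3a), all smaller in size than those of the members.

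**Figure D5:**
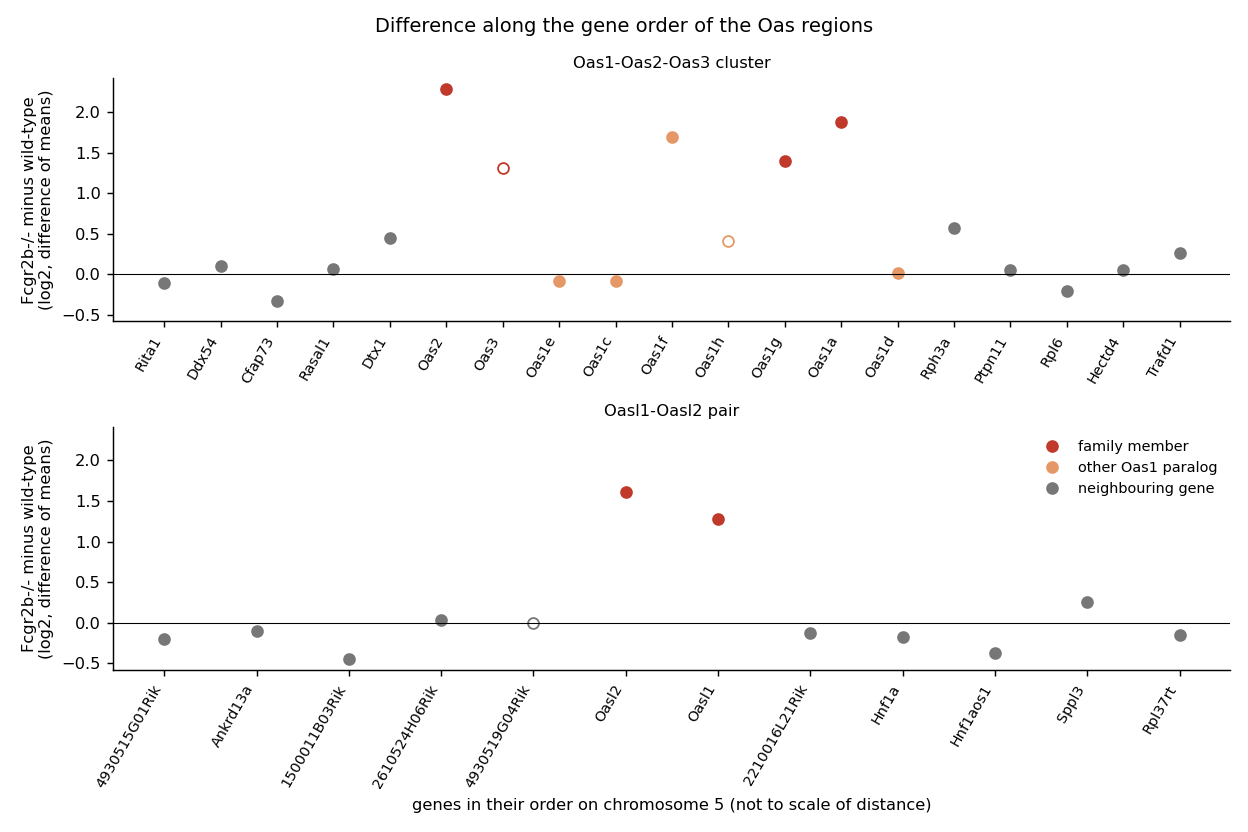
Difference of means between Fcgr2b-/- and wild-type mice (y axes, log2) for genes in their order on chromosome 5 (x axes, not to distance), with Oas genes and neighbours marked apart and open marks for probes that did not pass the filter. The 6 measured members and Oas1f lie above 1, and Oas1c, Oas1d, Oas1e, and the neighbours lie between -0.44 and 0.57.

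The genes whose pattern over the 16 mice was most like the mean of the 5 members that passed the filter were, among 16374 genes, Oas1f (Pearson's r = 0.99), Irf7 (0.98), Ppp1r18, H2-Ab1, Isg15, Gch1, Samhd1, Ifitm3, Ebi3, and Hcls1, the last 8 at 0.95 to 0.96. This is a description over arrays that share their scaling and include those used in the choice of members. Irf7 is the interferon regulatory factor that drives the later interferon response, Isg15 is a ubiquitin-like modifier, Samhd1 degrades deoxynucleotides, Ifitm3 limits virus entry, and H2-Ab1 is a chain of MHC class II. In the 8 STING-deficient mice alone r was 0.95 for Oas1f, 0.94 for Irf7, 0.91 for Isg15, 0.73 for Gch1, and 0.72 for Ebi3. The genes most opposed were Rtn3 (-0.93), Prxl2a, and Csnk2a1 (both -0.89). Oas1c (r = 0.14), Oas1e (0.12), and Oas1d (-0.23) were far from the family.

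Of the genes listed for the 2'-5' oligoadenylate pathway, 0 were called in any comparison. In Fcgr2b-/- against wild-type Akap7, which degrades the oligoadenylate, differed by 0.46 (-0.08 without wild-type mouse 2, 0.03 without Fcgr2b-/- mouse 1, and 1.20 without Fcgr2b-/- mouse 2), and Pde12, another enzyme that degrades it, by -0.43. Of 8 other double-stranded RNA sensors and effectors, 7 had the higher mean in Fcgr2b-/- mice and 0 were called, with Dhx58, a helicase of the RIG-I family, at 1.50, Zbp1, a sensor of Z-form nucleic acid, at 1.12, and Tlr3, the endosomal receptor, at 0.63. Without Fcgr2b-/- mouse 1 these were 0.90, 0.49, and 0.11.

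Of 6 genes of DNA sensing 4 were higher and 0 were called, led by Sting1 (1.44), the kinase Ikbke (1.27), and Cgas (1.26). Of 8 factors that bind interferon response elements 8 were higher and 0 were called, with Irf7 at 1.23, Irf8 at 0.94, and Stat2 at 0.76. Of 10 other interferon-stimulated genes 10 were higher and 0 were called, with Ifit1 at 1.20, Isg15 at 1.11, and Cxcl10 at 1.08. The medians of these 3 lists were 1.10, 0.71, and 0.87, beside 1.61 for the members that passed the filter and -0.04 for all probes, and in these lists 2, 2, and 1 genes were under an unadjusted p of 0.05 by limma. Without Fcgr2b-/- mouse 1 the differences were 0.93 for Sting1, 0.56 for Cgas, 0.61 for Irf8, 0.25 for Stat2, 0.49 for Ifit1, and 0.69 for Isg15. Ifit1 was at 0.42 without wild-type mouse 2, Cxcl10 at 0.68 without Fcgr2b-/- mouse 4, and Ikbke at 0.49 with normexp background correction.

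Of 9 receptors and kinases of the interferon pathway 8 were higher and 0 were called, and the largest differences were those of Ifngr1 (0.60), Ifngr2 (0.39), and Ifnar2 (0.28), which without Fcgr2b-/- mouse 1 were 0.21, 0.15, and 0.16. Of 8 ligands 7 had a named probe and 4 were tested, of which 0 were called, with Ifng at 1.06, Ifnl3 at 0.35, and Ifna1 at -0.14. Ifng was above background on 7 arrays and was at 0.28 without Fcgr2b-/- mouse 1 and at 0.38 with normexp background correction. Ifnb1, Ifna4, and Ifne were above background on 0 arrays. Across double-deficient and Sting gt/gt mice, 0 genes of these lists were called, and the medians were -0.52 for the interferon-stimulated genes and -0.25 for the factors, beside -0.58 for the members.

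Markers of several immune cells were highest in the same mice as the Oas genes. The summed signal of 5 macrophage markers was 4.71 to 6.21 in Fcgr2b-/-, 4.11 to 4.28 in wild-type, 4.47 to 4.60 in double-deficient, and 4.29 to 4.74 in Sting gt/gt mice, with Fcgr2b-/- mice 1 and 4 the 2 highest of 16. Their means were higher in Fcgr2b-/- than wild-type mice for 5 of 5 markers, 0 of them called, and all 5 were above background on all arrays. Csf1r was the brightest and the largest part of this sum. Adgre1 and C1qb overlapped between these 2 groups, while Csf1r, C1qa, and Cd68 did not, against 1.2% of probes without overlap. The summed signal of 4 leukocyte markers was 2.10 to 5.14 in Fcgr2b-/-, 0.70 to 3.15 in wild-type, 1.67 to 3.17 in double-deficient, and 1.82 to 3.17 in Sting gt/gt mice, with the same 2 mice on top. Ptprc (CD45) for example was at 3.09 and 2.05 in Fcgr2b-/- mice 1 and 4 and at -0.72 and -0.43 in mice 2 and 3.

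The summed signal of 5 markers of conventional dendritic cells, in which Itgax is the brightest, was -0.78 to 2.68 in Fcgr2b-/- and -1.75 to 0.75 in wild-type mice. The same 2 mice were on top for the sum, Itgax, and Flt3, but not for Zbtb46 or Clec9a, and Xcr1 was above background on 2 arrays. The summed signal of 5 markers of the proximal tubule, the main epithelium of the kidney cortex, was lowest in these 2 mice, at 7.26 and 8.13, where the other 14 had 8.16 to 9.14. Marker by marker this did not hold for mouse 4, and Lrp2 was lowest in Sting gt/gt mice 3 and 4. Correlations with the family mean were taken, as a description over the 16 mice, from the mean log2 signal of the markers of a list. They do not use the summed signal, in which the brightest marker weighs most. By this measure r was 0.91 for macrophages, 0.89 for leukocytes, and 0.81 for conventional dendritic cells. It was 0.76 for T cells, 0.73 for neutrophils, 0.64 for monocytes, 0.46 for plasma cells, 0.36 for B cells, and 0.13 for red cells. Among kidney cells it was -0.76 for proximal tubule, 0.77 for podocytes, 0.55 for endothelium, 0.04 for thick limb, and -0.20 for collecting duct. For plasmacytoid dendritic cells, the cells known for interferon alpha release, it was -0.14. The summed signal of these cells, which that r does not use, was mostly Siglech, by far the brightest of the 4 markers. Siglech was highest in Sting gt/gt mouse 4. The B cell marker Cd79a was never above background. Blood was not flushed from the kidneys before RNA extraction, by the study's account, and the part of immune cells in the signal of the Oas genes was not tested.

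Sex is not on the labels, and Y-linked signal was present in wild-type mice 1 and 2, Fcgr2b-/- mouse 3, double-deficient mice 2 and 4, and Sting gt/gt mouse 3. In mice without it the median difference of the members in Fcgr2b-/- against wild-type was 2.02 (3 mice against 2), and in mice with it 0.38 (1 against 2). The arrays lay on 2 slides, with Fcgr2b-/- mice 1, 2, and 4 and wild-type mice 1 and 2 on the first. The median was 2.03 there (3 against 2) and 0.22 on the second (1 against 2). Both splits set Fcgr2b-/- mouse 3 apart and part the wild-type mice alike, so sex and slide cannot be told apart in this comparison. Wild-type mice with and without Y-linked signal did not stand apart for the members. In double-deficient against Fcgr2b-/- mice the median was -1.92 on the first slide (1 against 3) and -0.21 on the second (3 against 1). It was -1.81 in mice without Y-linked signal (2 against 3) and -0.51 in mice with it (2 against 1). In double-deficient against Sting gt/gt mice the median was -0.47 and -0.54 on the slides and -0.12 and -0.90 in mice without and with Y-linked signal. The part of sex and slide in the values of the Fcgr2b-/- mice was not tested beyond these numbers.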

How the data were processed

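Total RNA of 16 kidneys (100 ng each) was labelled with Cy3 and hybridised to one-color arrays, 4 per genotype. The authors deposited a scanner file per array (Agilent Feature Extraction 11.0, per the labels), whose processed intensity of each spot is background-subtracted and not scaled between arrays, and a table of log2 values of the same arrays whose making is not given in the sources used here, used as an alternative. Every column of the table was matched to a mouse.

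Control and outlier spots were left out, spots of a probe were averaged, and log2 of intensity was centred on each array's 75th percentile (Python 3.11.15, pandas 2.3.3, numpy 2.4.6, scipy 1.17.1, matplotlib 3.10.9). The 35629 probes that rose well above background on 4 or more of the 16 arrays were fitted with limma 3.58.1 (R 4.3.3, statmod 1.5.0), a mean per genotype over all 16 arrays. Calls needed p under 0.05 after Benjamini-Hochberg adjustment over these probes, and a change of 2-fold or more. Probes were named through RefSeq transcripts of GRCm38.p6, 58.3% of 56605, each gene by its brightest probe. The arrays were designed on another build, so the RefSeq table gave only names, gene order and promoters. The fit was tested on simulated data.

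The members and gene lists were chosen with earlier results of these data known. All members are named, of each list the called genes or otherwise up to 3 with the largest differences, and the 10 genes most like and 3 most unlike the mean of the members. Other genes and mice were named after their values were seen. The number of arrays limits the precision. Of the pairs of members planned for correlation, 6 could be made, since 4 members were above background on all 8 STING-deficient arrays. The p of a pair was from all 40320 pairings.

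Replicate numbers do not pair the mice, since deviations from group means of same-numbered mice had a mean r of 0.12, -0.02, -0.04, and -0.01 for the numbers 1 to 4. Alternatives were normexp with an offset of 50 (on the median signal, since the mean signal of a spot is not in the columns used), quantile and median scaling, the authors' table, other filters on dim probes, only the groups compared, blocks for slide, replicate number, label number, and sex, Sting gt/gt mice 3 and 4 left out together, eBayes with trend, the Mann-Whitney test of the methods, the median over probes of a gene, and each array left out. Oas1b had no named probe and the median of the members is over 6. Some genes of the lists and a motif are not reported here.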

Additional observations from a re-analysis of the deposited data

Results flagged for a closer look

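In 44 groups of 4 mice tested for a value far from the others, of which chance gives about 1 in 20, 2 values stood apart. Oas2 in double-deficient mouse 3 was the highest of its group at -1.44, and its gap to the next mouse was 0.868 of the range of the group. Oasl1 in wild-type mouse 2 was the lowest of its group at -1.0, with a gap of 0.872 of the range, and the same mouse was also the lowest of the 16 for Oas1a, Oas2, and Oasl2.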

How the results depend on the processing

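The direction of the median difference of the members held under every alternative run in Fcgr2b-/- against wild-type (1.29 to 1.50), double-deficient against Fcgr2b-/- (-1.61 to -1.21), double-deficient against Sting gt/gt (-0.63 to -0.39), and Sting gt/gt against wild-type (0.27 to 0.57). In double-deficient against wild-type it ran from -0.08 to 0.19. With each mouse left out in turn these medians were 1.08 to 1.94, -2.09 to -1.20, -0.77 to -0.32, 0.28 to 0.65, and -0.19 to 0.17. With normexp background correction the dim Oas3 fell to 0.22 in Fcgr2b-/- against wild-type and to -0.32 in double-deficient against Fcgr2b-/-. The median r between members in STING-deficient mice rose from 0.815 to 0.933 without Sting gt/gt mice 3 and 4, a setting chosen after seeing the data.

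Counts of called probes moved more, and the cause was not tested. In Fcgr2b-/- against wild-type 16 were called, and 10 with normexp, 7 in the authors' table, 8 with sex as a block (chosen after seeing the data), and 0 with the label number as a random block, with only probes above background on all 16 arrays, or with only the arrays of the groups compared. The replicate block gave 15. Leaving out a mouse gave 0 to 39, the highest without Fcgr2b-/- mouse 2, with 5 or 6 without any double-deficient mouse, 5 without Sting gt/gt mouse 2, 8 without Sting gt/gt mouse 4, 22 without Fcgr2b-/- mouse 3, 3 without Fcgr2b-/- mouse 1, and 0 without Fcgr2b-/- mouse 4 or any of wild-type mice 2, 3, and 4. The Mann-Whitney test gave 143 unadjusted and 0 after adjustment, where 1176 probes were under an unadjusted p of 0.05 by limma.

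In double-deficient against Sting gt/gt 0 were called, 2 with only the groups compared and 0 to 1 with a mouse left out, and 171 by the unadjusted Mann-Whitney test. That test gave 37 in double-deficient against Fcgr2b-/-, 117 in Sting gt/gt against wild-type, and 58 in double-deficient against wild-type, which by limma had 0 each, with 629, 1321, and 149 under an unadjusted p of 0.05. With the label number as a random block, double-deficient against Fcgr2b-/- still had 0 called. By limma 3464 probes were then under an unadjusted p of 0.05, with a smallest adjusted p of 0.112. In double-deficient against wild-type normexp gave 1, the filter on all 16 arrays 1, only the groups compared 3, and leaving out a mouse 0 to 1. The replicate block changed no other call by over 1.5 times. Dim signal limits Oas1g and Oas3, and 4 mice per group limit every difference.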

Other observations

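Interferon-stimulated genes differed in how closely they followed the Oas family mouse by mouse. Rsad2, which encodes the antiviral protein viperin, had r = 0.51 with the mean of the members over the 16 mice. Over the 8 STING-deficient mice it had 0.77. Ifi44 had 0.63 over both sets. Bst2 (tetherin) had 0.94 and 0.90, Irf9 had 0.94 and 0.82, and Cgas had 0.86 and 0.62. Sting1 had 0.89 over the 16 mice and 0.34 over the 8 STING-deficient mice. These are descriptions over arrays that share their scaling.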
